A study of Mus musculus with 6 samples.

Results

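Transcripts of 8 genes that digest DNA or sense it outside the nucleus were followed in F4/80+ cells of mouse bone marrow, out of 11489 genes in the deposited table. The genes were chosen by symbol, with earlier results of these data known. All 8 are in the table: Dnase2a, Trex1, Samhd1 and Pld4 (nucleases and a nucleotide hydrolase), Ifi204 and Aim2 (DNA sensors), and Tmem173 and Tbk1 (the adaptor STING and its kinase). RNA sequencing was done on cells sorted by flow cytometry for F4/80, a surface protein of mouse macrophages, and for eGFP from a reporter of Epor, the erythropoietin receptor gene. There were 3 libraries of F4/80+ Epor-eGFP+ cells and 3 of F4/80+ Epor-eGFP- cells. Both groups carry the label of erythroblastic island macrophages, which support maturing erythroblasts. Age, sex and strain of the mice, the construct behind the reporter, and whether each library came from its own animal are not stated in the labels, so p-values reflect only how far these libraries scatter, which may be technical.

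Erythroblasts expel their nuclei as they mature, and the macrophage at the centre of an erythroblastic island engulfs them. DNase II, the acid nuclease encoded by Dnase2a, cuts their DNA in the lysosome, and mice without it accumulate undigested DNA in macrophages and produce type I interferon. DNA that reaches the cytosol is degraded by nucleases such as TREX1, or is bound by sensors that signal through STING and TBK1 to interferon genes, while AIM2 instead assembles an inflammasome.

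Values are FPKM, fragments per kilobase normalised to library size, so levels of different genes can be compared per length. Total FPKM per library was 467176 to 501037 in Epor-eGFP+ and 505141 to 519650 in Epor-eGFP-, and the files hold no read counts from which a depth could be given. Libraries are called by the number 0, 1 or 2 in their column names. Epor itself was at 3.43 to 7.79 FPKM in Epor-eGFP+ and at 0.217 to 0.414 FPKM in Epor-eGFP-. Of 12 macrophage markers, 7 were higher and 1 lower in Epor-eGFP+, and the list summed to 1161 to 3126 FPKM there, highest in library 2, against 721 to 977 FPKM in Epor-eGFP-. Transcripts listed as markers of other cells were abundant in both groups: 11 neutrophil markers summed to 13175 to 17131 FPKM in Epor-eGFP+ and 24684 to 38974 FPKM in Epor-eGFP-. The largest of the 11 was S100a9, at 5333 ± 936 FPKM in Epor-eGFP+ and 9964 ± 2200 FPKM in Epor-eGFP-. Epor-eGFP- library 2 lists Lyz2, an abundant myeloid gene, at 0, and Epor-eGFP+ library 0 lists the eosinophil gene Prg2 at 0, although Prg2 reached 10348 FPKM in library 1 and 11088 FPKM in library 2 of Epor-eGFP+.

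Dnase2a rose in Epor-eGFP+ cells and the other 7 genes fell. Differences were tested with limma on log2(FPKM + 1) over the 10964 genes that averaged at least 1 FPKM, with Benjamini-Hochberg adjustment and a threshold of 0.05. All 8 genes passed the filter on low values, with means over the 6 libraries from 13.03 to 226 FPKM. In that fit 22.7% of all genes were called higher and 26.3% lower in Epor-eGFP+, which is the background for the counts of 1 gene higher and 7 lower. The Epor-eGFP+ and Epor-eGFP- values of all 8 genes did not overlap, while 28.4% of the genes tested lay higher and 31.9% lower without overlap. The exact permutation test, two-sided, gave 0.1 for each of the 8, the lowest p within reach of 3 libraries per group. Calls and directions of 7 of the genes held in each of 14 alternative fits, and Tbk1 is the exception given below. In RNA of a whole sorted population, fewer cells of a type and less RNA per cell cannot be told apart.

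**Figure D1:**
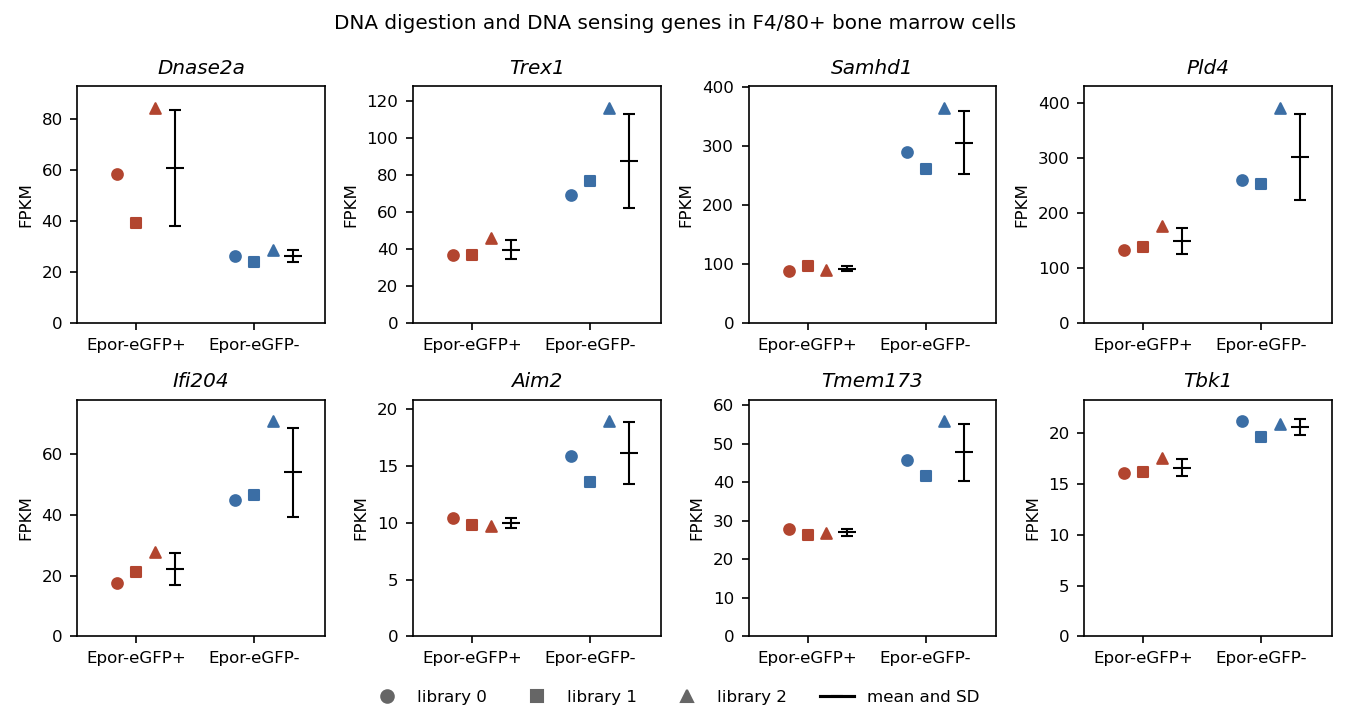
FPKM of the 8 genes (vertical axes, from 0) in 3 Epor-eGFP+ and 3 Epor-eGFP- libraries, with the mean and SD beside each group. Dnase2a is higher in every Epor-eGFP+ library (39.4 to 84.5 FPKM, against 23.8 to 28.5 FPKM in Epor-eGFP-), and the other 7 genes are lower.

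Dnase2a was at 58.5, 39.4 and 84.5 FPKM in Epor-eGFP+ and 26.3, 23.8 and 28.5 FPKM in Epor-eGFP-, with libraries listed here and below in the order 0, 1, 2. The Epor-eGFP- libraries lay close together and the Epor-eGFP+ libraries were spread out, with coefficients of variation of 37.3% in Epor-eGFP+ and 8.87% in Epor-eGFP-. The means were 60.8 ± 22.6 FPKM in Epor-eGFP+ and 26.2 ± 2.32 FPKM in Epor-eGFP- (SD, n = 3 per group), a log2 fold change of 1.12 (SE 0.25, limma adjusted p = 0.0103). Without both libraries numbered 2 the means were 48.9 FPKM in Epor-eGFP+ and 25.0 FPKM in Epor-eGFP-. Within Epor-eGFP+, Dnase2a followed the order of the summed macrophage markers, with its peak in library 2 and its low in library 1. The single macrophage markers had this order too, such as the scavenger receptor gene Cd163 at 115, 58.2 and 267 FPKM. The exceptions were Cd14 and Lamp2, which were lowest in library 0. Of all tested genes, 33.8% were highest in library 2 within Epor-eGFP+. The part of macrophage content in the Dnase2a difference was not tested.

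Dnase2a occupies bases 84908560 to 84922915 of chromosome 8, plus strand (GRCm38), 3268 bases downstream of Klf1, the gene of an erythroid transcription factor. Klf1 was at 19.3 ± 4.03 FPKM in Epor-eGFP+ and 1.54 ± 0.402 FPKM in Epor-eGFP- (log2 fold change 2.99, SE 0.18, adjusted p = 0.000261). Gcdh, a mitochondrial dehydrogenase gene on the other side of Klf1, was at 11.6 ± 0.994 FPKM in Epor-eGFP+ and 5.69 ± 0.496 FPKM in Epor-eGFP- (0.92, SE 0.09, adjusted p = 0.000749). Within Epor-eGFP+, Gcdh had the library order of Dnase2a, at 11.4, 10.8 and 12.7 FPKM, while Klf1 peaked in library 0 and was lowest in library 2, where Dnase2a was highest. Within Epor-eGFP-, Gcdh was at 5.81, 6.12 and 5.15 FPKM, highest in library 1 and lowest in library 2. The order of Dnase2a there was the reverse. Exons of Mast1, a kinase gene on the opposite strand, cover 30.0% of the annotated exon bases of Dnase2a. A library kit that does not mark strand cannot tell reads of such overlapping genes apart. Mast1 was at 1.46 ± 0.546 FPKM in Epor-eGFP+ and 0.646 ± 0.105 FPKM in Epor-eGFP-, far below Dnase2a. It had the library order of Dnase2a in both groups, at 1.313, 1.002 and 2.065 FPKM in Epor-eGFP+ and 0.5985, 0.5726 and 0.7669 FPKM in Epor-eGFP-. How reads were divided between Mast1 and Dnase2a was not tested. The log2 fold change of 0.56 for Mast1 (adjusted p = 0.0333) lost its call in 7 of 13 alternative fits.

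The promoter of Dnase2a is shown because it is the promoter of the gene that rose. The sequence is from RefSeq on GRCm38.p6, 250 bases before to 50 bases after the annotated start, chr8:84908505-84908804 on the plus strand, written 5′ to 3′ with matches to CCNCNCCC, a motif of Kruppel-like factors, on either strand in capitals.
Dnase2a: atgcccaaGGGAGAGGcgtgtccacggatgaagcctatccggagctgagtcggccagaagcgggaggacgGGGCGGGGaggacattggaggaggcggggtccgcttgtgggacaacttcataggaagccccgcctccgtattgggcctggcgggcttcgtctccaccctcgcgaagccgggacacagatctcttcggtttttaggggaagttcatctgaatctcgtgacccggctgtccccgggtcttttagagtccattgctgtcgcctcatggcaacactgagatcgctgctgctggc
The RefSeq start lies 195 bases downstream of the 5′ end of the gene in GENCODE given above, and the matches begin 242 and 180 bases before the RefSeq start. This motif is common: 67.3% of 10794 promoters of tested genes hold it, as do 49.5% of all 32851 promoters. Promoters of 6 of the 8 genes, in 7 windows, were in the table, and those of Ifi204 and Tmem173 were not used here. None of the 7 windows holds GAAANNGAA, the core of the interferon-stimulated response element, on either strand, and 7.52% of promoters of tested genes do. None holds the GATA motif AGATAA, which 6.47% of them do.

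Of the nucleases and the nucleotide hydrolase that fell, Samhd1 fell most. SAMHD1 hydrolyses deoxynucleotide triphosphates and so limits DNA synthesis by viruses. Samhd1 was at 88.5, 96.2 and 90.4 FPKM in Epor-eGFP+, against 289, 261 and 365 FPKM in Epor-eGFP-. The Epor-eGFP+ libraries agreed closely, and each was at less than every Epor-eGFP- library by a wide margin. The means were 91.7 ± 4.01 FPKM in Epor-eGFP+ and 305 ± 53.5 FPKM in Epor-eGFP-, a level in Epor-eGFP+ of 30.1% of that in Epor-eGFP- (log2 fold change -1.71, SE 0.13, adjusted p = 0.000342). Samhd1 occupies bases 157097533 to 157135265 of chromosome 2, minus strand. By log2 fold change it ranked 82 from the lowest of 10964 genes.

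Trex1 encodes the main exonuclease of cytosolic DNA, which removes bases from 3′ ends. It was at 36.6, 36.7 and 45.6 FPKM in Epor-eGFP+, and at 69.2, 76.7 and 116 FPKM in Epor-eGFP-. Library 2 was the highest in both groups, more so in Epor-eGFP-. The means were 39.6 ± 5.18 FPKM in Epor-eGFP+ and 87.4 ± 25.3 FPKM in Epor-eGFP- (log2 fold change -1.09, SE 0.20, adjusted p = 0.00468). Trex1 occupies bases 109057933 to 109059734 of chromosome 9, minus strand, and all of its 1147 annotated exon bases lie within the annotated exons of Atrip on the same strand, so reads could be split between them. Atrip, a gene of the DNA damage checkpoint, was at 7.18 ± 0.766 FPKM in Epor-eGFP+ and 5.44 ± 0.622 FPKM in Epor-eGFP- (0.34, adjusted p = 0.0373), a call lost in 6 of 14 alternative fits. Trex1 was 4.61 to 7.12 times Atrip in Epor-eGFP+ and 11.5 to 24.4 times Atrip in Epor-eGFP-. Shisa5, which ends 155 bases from the 3′ end of Trex1 on the other strand, fell as well (-0.98, SE 0.19, adjusted p = 0.00601).

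Pld4 and its relative Pld3 encode exonucleases of the lysosome that degrade single-stranded DNA and RNA from 5′ ends, and limit what reaches endosomal Toll-like receptors. Pld4 was at 133, 139 and 176 FPKM in Epor-eGFP+, and at 259.7, 254 and 393 FPKM in Epor-eGFP-. The groups were well apart, and library 2 was again the highest in both. Pld4 occupies bases 112760655 to 112768990 of chromosome 12, plus strand. The means were 149 ± 23.4 FPKM in Epor-eGFP+ and 302 ± 78.5 FPKM in Epor-eGFP- (log2 fold change -0.99, SE 0.19, adjusted p = 0.00595).

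Pld3 went the other way. It was at 256, 139 and 606 FPKM in Epor-eGFP+, and at 32.2, 23.8 and 26.2 FPKM in Epor-eGFP- (log2 fold change 3.31, SE 0.48, adjusted p = 0.00212). Its Epor-eGFP+ mean of 334 ± 243 FPKM became 197 FPKM without library 2, against 27.4 ± 4.32 FPKM in Epor-eGFP-. Pld4 was 0.2907 to 1.004 times Pld3 in Epor-eGFP+ and 8.06 to 15.0 times Pld3 in Epor-eGFP-, and the groups did not overlap in this ratio. The summed FPKM of both genes overlapped between groups, at 278 to 783 FPKM in Epor-eGFP+ and 278 to 419 FPKM in Epor-eGFP-. Pld3 made up 49.9% to 77.5% of that sum in Epor-eGFP+ and 6.26% to 11.03% in Epor-eGFP-.

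**Figure D2:**
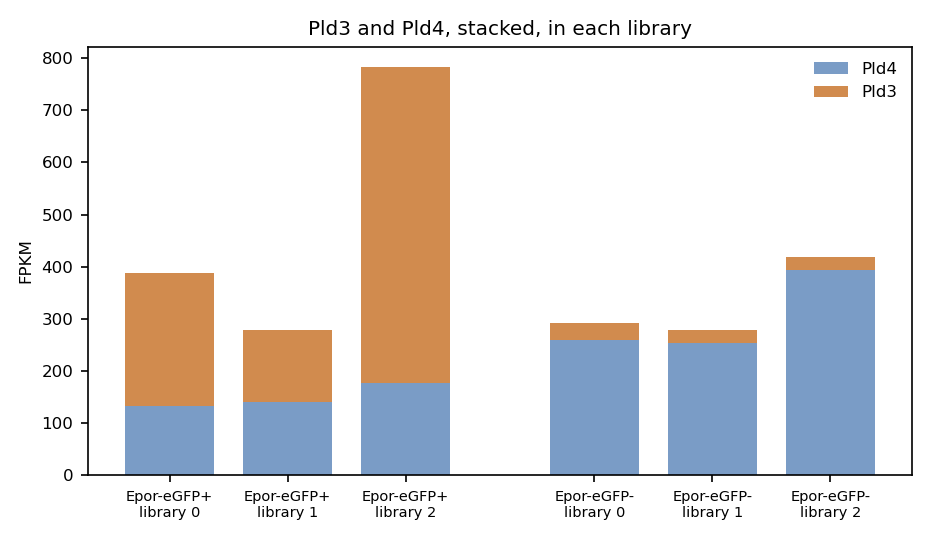
FPKM of Pld4 (lower part of each bar) and Pld3 (upper part) stacked in each of 6 libraries, from 0. Pld3 is 49.9% to 77.5% of the bar in Epor-eGFP+ libraries and 6.26% to 11.03% in Epor-eGFP- libraries.

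Promoters of Samhd1 and Pld4 are shown because these were the most abundant of the 8 genes in Epor-eGFP-. They are RefSeq sequences on GRCm38.p6, chr2:157135047-157135346 on the minus strand for Samhd1 and chr12:112760405-112760704 on the plus strand for Pld4. Capitals mark matches on either strand to CCNCNCCC, to TTCNNNGAA (the gamma-activated sequence bound by STAT proteins) and to GAGGAAG (a motif of PU.1, a myeloid transcription factor).
Samhd1: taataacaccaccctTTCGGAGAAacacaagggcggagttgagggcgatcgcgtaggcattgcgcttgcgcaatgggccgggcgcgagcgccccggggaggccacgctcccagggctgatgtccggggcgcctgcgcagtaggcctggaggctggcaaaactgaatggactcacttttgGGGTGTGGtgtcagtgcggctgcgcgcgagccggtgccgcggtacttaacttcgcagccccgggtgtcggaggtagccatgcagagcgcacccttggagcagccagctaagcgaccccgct
Pld4: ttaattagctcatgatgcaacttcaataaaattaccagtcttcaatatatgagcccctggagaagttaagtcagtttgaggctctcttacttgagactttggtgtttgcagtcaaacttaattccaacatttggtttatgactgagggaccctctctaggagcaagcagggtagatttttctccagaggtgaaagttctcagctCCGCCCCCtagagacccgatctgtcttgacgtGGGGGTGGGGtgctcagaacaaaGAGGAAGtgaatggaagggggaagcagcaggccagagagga
Positions are counted from the RefSeq start of each window, which for Samhd1 lies 169 bases downstream of the GENCODE 5′ end and for Pld4 is the same base. In Samhd1 the match to TTCNNNGAA begins 235 bases before the start and the match to CCNCNCCC 71 bases before it. In Pld4 the matches to CCNCNCCC begin 46, 14 and 12 bases before the start, the last 2 of them overlapping, and the match to GAGGAAG begins at base 10 of the transcript. Among promoters of tested genes, 6.96% hold TTCNNNGAA and 14.3% hold GAGGAAG, which Aim2 and 1 of the 2 Trex1 windows hold too. In Aim2, a match to GGGANTTTC, a motif of NF-kB, begins 154 bases before the RefSeq start (1.05% of promoters of tested genes), which is 69725 bases downstream of the GENCODE 5′ end of the gene, and in Tbk1 CACGTG begins at base 6 of the transcript (10.2%). These matches are descriptions of the letters and say nothing of binding.

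Both DNA sensors fell. Ifi204 encodes a PYHIN protein related to human IFI16 that binds DNA. Ifi204 was at 17.6, 21.1 and 27.8 FPKM in Epor-eGFP+, and at 44.7, 46.4 and 70.8 FPKM in Epor-eGFP-. Epor-eGFP+ and Epor-eGFP- did not overlap, and library 2 was the highest in each. The means were 22.2 ± 5.14 FPKM in Epor-eGFP+ and 54.0 ± 14.6 FPKM in Epor-eGFP- (log2 fold change -1.24, SE 0.22, adjusted p = 0.00427).

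Aim2 was the least abundant of the 8 genes in both groups. AIM2 binds double-stranded DNA in the cytosol and recruits caspase-1 through the adaptor ASC. Aim2 was at 10.5, 9.75 and 9.67 FPKM in Epor-eGFP+, against 15.8, 13.5 and 18.9 FPKM in Epor-eGFP-. The Epor-eGFP+ libraries were nearly level, with a coefficient of variation of 4.30% in Epor-eGFP+ and 16.8% in Epor-eGFP-. The log2 fold change was -0.63 (SE 0.12, adjusted p = 0.00555).

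Both genes are on chromosome 1, Ifi204 at bases 173747293 to 173766943 (minus strand) and Aim2 at bases 173350879 to 173466040 (plus strand). The Ifi200 genes are close relatives, and the sharing of reads among them makes each single estimate uncertain. Beside Aim2, 9 Ifi200 genes were found in the table by RefSeq symbol or synonym, Ifi204 among them. Of the others 7 fell, with log2 fold changes of -1.32 for Ifi205, -1.28 for Pyhin1, -1.22 for Mnda, -1.05 for Ifi203, -0.97 for Mndal, -0.85 for Pydc3 and -0.74 for Pydc4. Mnda lost its call without Epor-eGFP+ library 0 (adjusted p = 0.0759), Pydc3 lost its call in 4 alternative fits (adjusted p up to 0.0878), and the other 5 held in every alternative that tested them. AI607873 (Ifi207 in RefSeq), which is in no list, did not pass: it was at 19.8, 23.3 and 33.4 FPKM in Epor-eGFP+, and at 29.3, 34.1 and 62.8 FPKM in Epor-eGFP-, and the groups overlapped (-0.65, SE 0.30, adjusted p = 0.115, but 0.00453 with the replicate block and 0.0182 without both libraries numbered 2). The 9 genes summed to 97.1, 122 and 141 FPKM in Epor-eGFP+, and to 213, 224 and 361 FPKM in Epor-eGFP-. Ifi204 was 17.2% to 19.6% of that sum in Epor-eGFP+ and 19.6% to 20.97% in Epor-eGFP-.

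**Figure D3:**
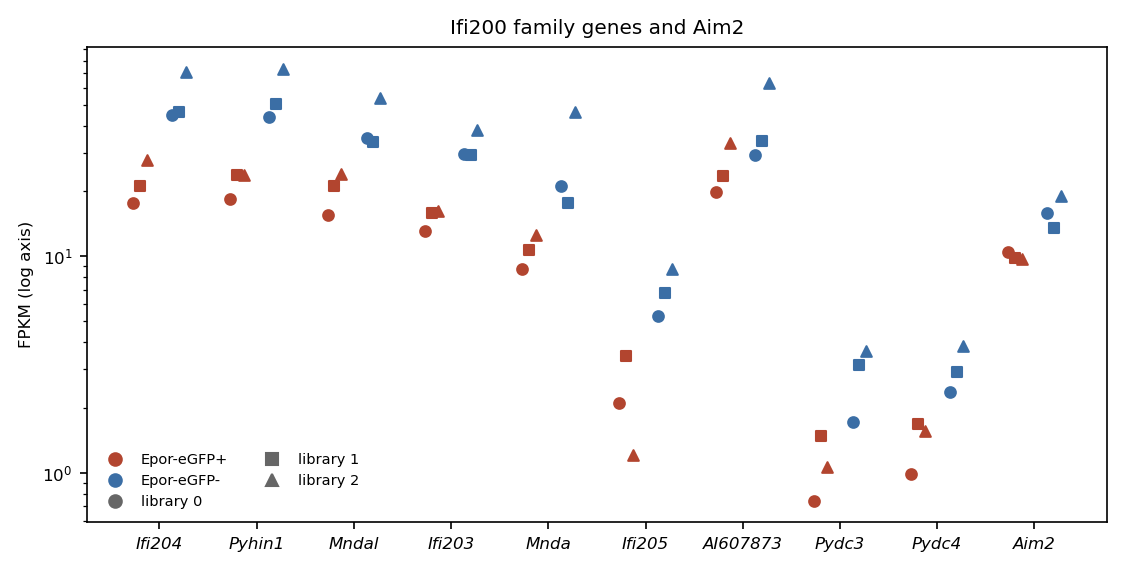
FPKM on a log axis of 9 Ifi200 genes and Aim2 in each library, 1 marker shape per library number. Each gene but AI607873, whose groups overlap, is lower in all 3 Epor-eGFP+ libraries than in any Epor-eGFP- library, for Ifi204 at 17.6 to 27.8 FPKM in Epor-eGFP+ against 44.7 to 70.8 FPKM in Epor-eGFP-.

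The adaptor and the kinase fell too, and Tbk1 fell least of the 7 genes. STING, the protein of Tmem173, sits in the endoplasmic reticulum and is switched on by the cyclic dinucleotide that the sensor cGAS makes on DNA. Tmem173 was at 27.9, 26.3 and 26.8 FPKM in Epor-eGFP+, and at 45.7, 41.6 and 55.8 FPKM in Epor-eGFP-. The Epor-eGFP+ values were within a narrow band well below the Epor-eGFP- values. The means were 27.0 ± 0.829 FPKM in Epor-eGFP+ and 47.7 ± 7.35 FPKM in Epor-eGFP- (log2 fold change -0.79, SE 0.11, adjusted p = 0.00195).

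TBK1 phosphorylates STING and the transcription factor IRF3. Tbk1 was at 16.1, 16.2 and 17.6 FPKM in Epor-eGFP+, and at 21.2, 19.7 and 20.9 FPKM in Epor-eGFP-. The groups did not overlap, but the gap between them was narrow. The means were 16.6 ± 0.813 FPKM in Epor-eGFP+ and 20.6 ± 0.807 FPKM in Epor-eGFP- (log2 fold change -0.30, SE 0.07, adjusted p = 0.0132). The call was lost without Epor-eGFP+ library 0 (adjusted p = 0.061), without Epor-eGFP- library 0 (0.0567) and when libraries were rescaled to a common total (0.0529), and over 14 alternatives its adjusted p ran from 0.0107 to 0.061. Tbk1 occupies bases 121546455 to 121586787 of chromosome 10, minus strand.

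The order of the 8 genes by level differed between groups. In Epor-eGFP+ it was Pld4, Samhd1, Dnase2a, Trex1, Tmem173, Ifi204, Tbk1 and Aim2 from high to low, where the values of Dnase2a and Trex1 overlapped, as did those of Tmem173 and Ifi204. In Epor-eGFP- it was Samhd1, Pld4, Trex1, Ifi204, Tmem173, Dnase2a, Tbk1 and Aim2, where Samhd1 overlapped Pld4, Trex1 overlapped Ifi204 and Ifi204 overlapped Tmem173. Dnase2a was thus at place 3 in Epor-eGFP+ and at place 6 in Epor-eGFP-. Its level was 1.07 to 1.85 times that of Trex1 in Epor-eGFP+ and 0.245 to 0.379 times in Epor-eGFP-. Within Epor-eGFP-, library 2 held the highest value of 7 of the 8 genes, all but Tbk1, while 38.5% of all tested genes were highest there. Pld4 in that library was 1.53 times the mean of libraries 0 and 1, and Trex1 1.59 times.

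Among other genes that averaged 10 FPKM or more, those most like Dnase2a over the 6 libraries were Sepp1 (selenoprotein P), Il18 and Ckb (creatine kinase B), with Pearson r of log2(FPKM + 1) of 0.9989, 0.9986 and 0.9978. All 3 were higher in Epor-eGFP+ (log2 fold changes of 2.13, 2.03 and 1.65). Nearest to Samhd1 were Klf13 and Rarg (0.9998 each), to Pld4 Cebpg (0.9978), to Trex1 Orai3 (0.9989), to Ifi204 Naa60 (0.9979), to Aim2 Nrros (0.9983), to Tmem173 Rxrb (0.9984) and to Tbk1 Aaed1 (0.9984). The 6 libraries form 2 groups, which sets most of each r: 222 genes were above 0.99 with Samhd1 and 30 with Dnase2a.

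Around the 8 genes, 6 lists of related genes were counted. The lists were chosen with earlier results of these data known, so their shares beside those of all genes are a description and no test. Beside the 8, 100 tested genes are in the lists, of which 44 fell, 16 rose and 40 had no call, while of all genes tested 26.3% were lower and 22.7% higher. The median log2 fold change of the 100 was -0.27, against -0.012 over all genes. Rescaling the libraries to a common total gave 40 lower and 23 higher, while over all genes it moved the share of calls that are higher to 59.5%, from 46.3%.

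The list of nucleic acid clearance held 19 tested genes, with 8 called higher, 5 called lower and 6 not called (median 0.21). The lower share of 26.3% equals that of all genes, and the higher share was 42.1%, against 22.7%. Beside Pld3 and Dnase2a, Dnase1l3, a secreted DNase of chromatin in apoptotic debris, was at 5.54 ± 2.17 FPKM in Epor-eGFP+ and 0.788 ± 0.122 FPKM in Epor-eGFP- (log2 fold change 1.82, SE 0.22, adjusted p = 0.00114). Enpp1, which outside cells hydrolyses the dinucleotide that activates STING, was at 2.91 ± 1.34 FPKM in Epor-eGFP+ and 0.541 ± 0.106 FPKM in Epor-eGFP- (1.29, SE 0.24, adjusted p = 0.00535). Endog, a mitochondrial nuclease, was at 4.44 ± 0.118 FPKM in Epor-eGFP+ and 1.91 ± 0.419 FPKM in Epor-eGFP- (0.91, SE 0.12, adjusted p = 0.00147). Beside Samhd1, Trex1 and Pld4, the list's falls are Dnase1l1, a relative of DNase I, at 15.1 ± 0.968 FPKM in Epor-eGFP+ and 25.2 ± 4.82 FPKM in Epor-eGFP- (-0.69, SE 0.13, adjusted p = 0.00574), and Adar, an RNA editing enzyme (-0.51, SE 0.09), both chosen after their values were seen. With genes that averaged under 5 FPKM left out, 5 of the list were higher, since Dnase1l3, Enpp1 and Endog are low and drop out.

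Of 22 DNA sensors, 12 fell, 4 rose and 6 had no call (median -0.69). The shares were 54.5% lower and 18.2% higher, against 26.3% and 22.7% of all genes. The 8 Ifi200 genes of the list, each estimate uncertain as said above, and Aim2 are among the 12. The other falls are Zbp1, Lrrfip1 and Tlr9, the last 2 named after their values were seen. All 4 rises lie outside the Ifi200 family. Outside it the falls, of Aim2, Zbp1, Lrrfip1 and Tlr9, were only as many as the rises. The lower share and the median of the list thus rest largely on the Ifi200 genes. Zbp1, a sensor of Z-form nucleic acids, fell most, at 13.8 ± 1.80 FPKM in Epor-eGFP+ and 41.4 ± 13.1 FPKM in Epor-eGFP- (log2 fold change -1.48, SE 0.21, adjusted p = 0.0019). Xrcc5, which encodes a subunit of the DNA repair protein Ku, rose by 1.28 (SE 0.13). Mb21d1, the gene of cGAS, chosen after its values were seen, was at 8.05 ± 1.06 FPKM in Epor-eGFP+ and 9.91 ± 1.35 FPKM in Epor-eGFP- and did not pass (-0.27, SE 0.13, adjusted p = 0.116, and 0.0454 in the fit with the replicate block). The count of higher sensors was 1 without Epor-eGFP+ library 0, and 2 without Epor-eGFP+ library 1 or without Epor-eGFP- library 2.

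Of 21 genes of STING signalling, 11 fell, 0 rose and 10 passed in neither direction by limma (median -0.27), and 1 was higher at an unadjusted p under 0.05. The lower share was 52.4%, while of all genes 26.3% were lower and 22.7% higher. Irf7, an interferon regulatory factor, was at 37.0 ± 5.33 FPKM in Epor-eGFP+ and 68.5 ± 17.7 FPKM in Epor-eGFP- (log2 fold change -0.85, SE 0.19, adjusted p = 0.0107). Nlrx1 (-0.72, SE 0.07) and Tbkbp1, a TBK1 binding protein (-0.62, SE 0.10), fell too, as did Ifi35 (-0.42, SE 0.10), which lost its call without Epor-eGFP+ library 0 (adjusted p = 0.0526). Irf3, the factor TBK1 acts on, chosen after its values were seen, was at 21.2 ± 0.552 FPKM in Epor-eGFP+ and 22.8 ± 0.933 FPKM in Epor-eGFP- and did not pass. Rescaled to a common total, 3 of the list were higher, and 1 under quantile normalization.

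Of 16 genes of endosomal DNA sensing, 5 fell, 4 rose and 7 had no call (median -0.11), shares of 31.2% lower and 25.0% higher that are near those of all genes (26.3% and 22.7%). Lysosomal proteases that process endosomal receptors rose in 3 of 4 genes, Lgmn by 2.13 (SE 0.41), Ctsb by 1.47 (SE 0.37) and Ctsl by 1.05 (SE 0.33). Ctsb lost its call without Epor-eGFP- library 0 (adjusted p = 0.0534), and Ctsl without that library, without Epor-eGFP- library 1 or without Epor-eGFP+ library 0. Without Epor-eGFP- library 0, 1 gene of the list was higher. Irf5, a factor downstream of Toll-like receptors, was at 74.96 ± 11.5 FPKM in Epor-eGFP+ and 171 ± 47.9 FPKM in Epor-eGFP- (-1.15, SE 0.20, adjusted p = 0.00408). Tlr9, the receptor of DNA in endosomes, chosen after its values were seen, fell by 0.79 (SE 0.16) on the log2 scale.

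Of 9 genes listed around the AIM2 inflammasome, Aim2 included, 5 fell, 1 rose and 3 had no call (median -0.42). The shares were 55.6% lower and 11.1% higher, against 26.3% and 22.7% of all genes. The list is wider than the AIM2 inflammasome, since Nlrp3 is in it. Pycard, the gene of ASC, fell by 0.42 (SE 0.11, limma adjusted p = 0.0167). Casp1 had no call (-0.28, SE 0.15, adjusted p = 0.17). Both were chosen after their values were seen. The gene that rose was Il18, a cytokine released after cleavage by caspase-1, at 39.2 ± 27.7 FPKM in Epor-eGFP+, or 23.9 FPKM without library 2, and 7.42 ± 1.46 FPKM in Epor-eGFP- (log2 fold change 2.03, SE 0.47, adjusted p = 0.0115). Nlrp3, the sensor of another inflammasome (-1.36, SE 0.16), Gsdmd, which encodes the pore protein gasdermin D (-0.54, SE 0.09), and Casp4 (-0.47, SE 0.11) fell. Casp4 lost its call without Epor-eGFP+ library 0 (adjusted p = 0.0513) and without both libraries numbered 2 (0.0633). Without Epor-eGFP+ library 0, 3 of the list were lower, and 2 were higher without Epor-eGFP+ library 1, in the fit with the replicate block or when rescaled to a common total.

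Of 23 genes of the type I interferon response, 15 fell, 0 rose and 8 passed in neither direction by limma (median -0.53), and 1 was higher at an unadjusted p under 0.05. The lower share was 65.2%, while of all genes 26.3% were lower and 22.7% higher. Mx1, an antiviral GTPase, was at 4.70 ± 1.34 FPKM in Epor-eGFP+ and 15.2 ± 4.15 FPKM in Epor-eGFP- (log2 fold change -1.50, SE 0.22, adjusted p = 0.00233). Oasl2 (-1.46, SE 0.23), Usp18 (-1.19, SE 0.19) and Ifit1 (-1.05, SE 0.20) fell as well, and Irf9, chosen after its values were seen, fell by 0.87 (SE 0.18). A single gene of the list was higher without Epor-eGFP- library 2, without both libraries numbered 2, or rescaled to a common total. Summed FPKM of the list was 380 to 468 in Epor-eGFP+ and 527 to 669.5 in Epor-eGFP-, highest in library 2 of each group.

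**Figure D4:**
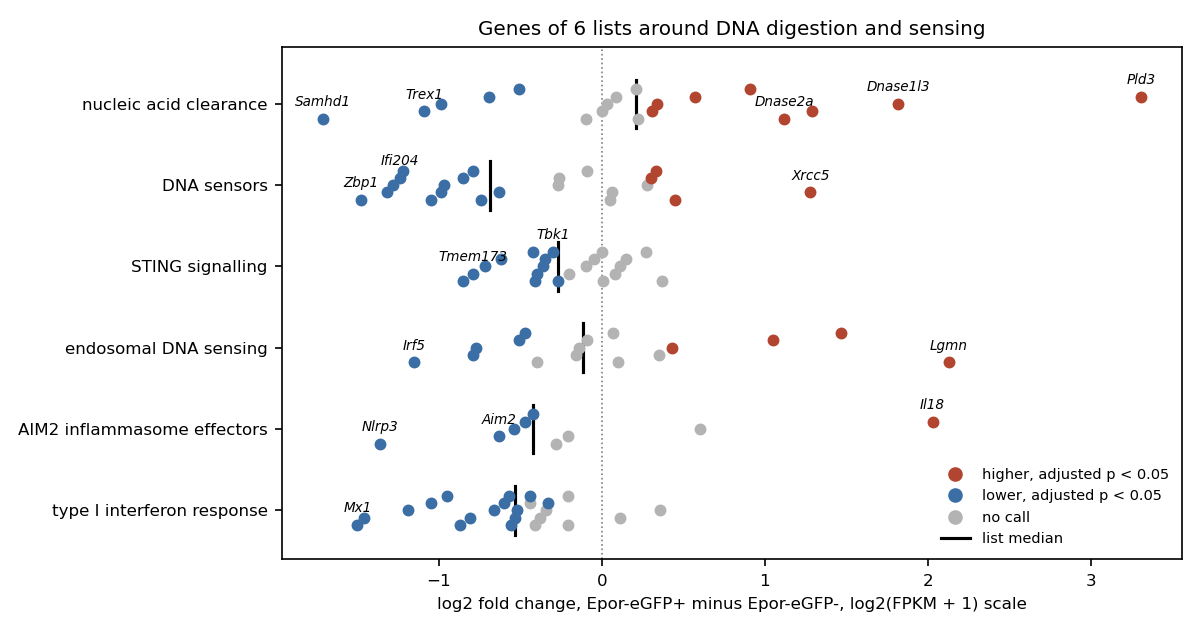
Log2 fold change (Epor-eGFP+ minus Epor-eGFP-, log2(FPKM + 1) scale) of each tested gene in 6 lists, coloured by the limma call, with the list median as a bar. Medians run from -0.69 for DNA sensors, a list that includes 8 Ifi200 genes, to 0.21 for nucleic acid clearance. Pld3 lies farthest to the right at 3.31.

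Markers of other cell types moved between the groups as well. Monocyte markers fell in 10 of 10 genes and summed to 1769 to 2254 FPKM in Epor-eGFP+, against 4709.9 to 5776 FPKM in Epor-eGFP-. Neutrophil markers fell in 10 of 11 genes. Of 8 eosinophil markers 5 fell and 1 rose, and they summed to 6384 to 15006 FPKM in Epor-eGFP+ and 13455 to 21877 FPKM in Epor-eGFP-, with Prg2 listed at 0 in 1 library. Erythroid markers rose in 11 of 13 genes and summed to 382 to 542 FPKM in Epor-eGFP+, against 51.4 to 67.6 FPKM in Epor-eGFP-. Of 6 tested markers of plasmacytoid dendritic cells, which express Pld4, 1 fell, and the list summed to 152.5 to 235 FPKM in Epor-eGFP+ and 171 to 251 FPKM in Epor-eGFP-. Siglech, which defines these cells, was near the filter at 0.793 to 1.22 FPKM in Epor-eGFP+ and 0.651 to 1.24 FPKM in Epor-eGFP-. Of 9 B lineage markers, whose sums were 179 to 251 FPKM in Epor-eGFP+ and 119 to 419.9 FPKM in Epor-eGFP-, 0 passed by limma, and 0 had an unadjusted p under 0.05. The part of monocytes, neutrophils, eosinophils and erythroid cells in the differences of the 8 genes was not tested.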

How the data were processed

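RNA was measured in 6 libraries, 3 per group, made with a TruSeq RNA kit per the labels' protocols. The authors deposited FPKM values in a single table, and the submitters' processing notes name build mm10 and 4 tools without roles: Cufflinks 2.2.1, TopHat2 2.1.0, Trimmomatic 0.35 and bcl2fastq 2.19.1.403. Which annotation, filters and library scaling the authors applied is not given in the sources used here. Cufflinks estimates how to divide reads among like genes.

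Columns name the group and a number from 0 to 2 that does not match the labels' 1 to 3, so a column was assigned to a group only. Same-numbered libraries deviated together from their group means (r = 0.252, 0.377 and 0.348 for numbers 0, 1 and 2, against -0.387 to 0.065 for other pairs), each above the 0.1 set for calling them pairs. The column number was therefore used as a replicate block in an alternative fit, although no label says what it marks. Deviations from a group mean cancel out within the group. The values of other pairs are thus tied to those of same-numbered pairs and are no separate evidence of pairing.

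A model with 1 term, the group, was fitted to log2(FPKM + 1) in limma 3.58.1 (R 4.3.3), with eBayes moderation with a trend, two-sided tests and a mean of at least 1 FPKM. Fold changes on this scale understate changes of low genes. Permutation tests used scipy 1.17.1. The fit was tested on simulated data. The 14 alternatives changed the block, the pseudocount, the filter, the scaling, the moderation or the libraries, and leaving out both libraries numbered 2 was chosen after seeing the data.

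Gene positions are from GENCODE M21 (GRCm38) and promoters from RefSeq (GRCm38.p6). The 8 genes and the lists were chosen with earlier results of these data known. From each list the text names up to 4 called genes with the largest absolute log2 fold change, and genes outside this rule are marked as picked after their values were seen, except neighbours and relatives of the 8 genes and genes that describe the libraries. The gene lists overlap, since Aim2 and Tlr9 are in 2 lists each.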

Additional observations from a re-analysis of the deposited data

How the results depend on the processing

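Under 14 alternatives the log2 fold change of Dnase2a ran from 0.85 to 1.395, of Trex1 from -1.24 to -0.87, of Samhd1 from -1.81 to -1.56, of Pld4 from -1.12 to -0.79, of Ifi204 from -1.41 to -1.03, of Aim2 from -0.74 to -0.50 and of Tmem173 from -0.88 to -0.67, all with the same call. Tbk1 was at -0.20 when rescaled to a common total (adjusted p = 0.0529) and between -0.33 and -0.27 with 1 library left out. With 1 library left out, 1634 to 2479 of all genes were higher, against 2489, and 11 to 18 genes of the 6 lists, against 17. The lowest counts were without Epor-eGFP+ library 0. The replicate block gave 3066 higher and 3335 lower genes, against 2489 and 2883, and changed the call of none of the 8 genes. The alternatives were also run for 44 other genes, mainly those named from the 6 lists and neighbours and relatives of the 8. Of these, 33 kept their call in every alternative that tested them, 8 lost a call, and Mb21d1 and AI607873 gained one. Other genes named in the text, such as Cd163 and Sepp1, were not checked in this way. Adgre1, the F4/80 gene (log2 fold change 0.23, adjusted p = 0.463), turned to -0.051 without both libraries numbered 2, and ran from -0.069 (without Epor-eGFP+ library 2) to 0.451 with 1 library left out. The cause of these changes was not tested. Fits with libraries left out also hold fewer libraries, while the replicate block and the rescaling use all 6. The longer form of the interferon-stimulated response element was in 0 promoter windows as well. Without read counts, no depth limit can be set for a gene.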
